A study of Rattus norvegicus with 16 samples.

Results

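The myeloid class at 8 weeks was the group of cells that the study's final cell type column names Macrophage in the 8 libraries of its later time point. It held 578 of the 55347 cells of these libraries, which in turn belong to a series of 149272 cells. Lumbar discs of male Sprague-Dawley rats were stabbed with a 27G needle at 8 weeks of age, and single cells from the digested discs were sequenced with the 3′ chemistry of 10x Genomics. In each of rats 5 to 8, killed 8 weeks after surgery, the 2 punctured discs (L4-5 and L5-6) were pooled into a library called LDP, and the 2 discs left unpunctured (L2-3 and L3-4) into a library called CON. Both groups thus came from the same operated animals, and CON is not tissue of an unoperated rat. The class held 337 CON and 241 LDP cells, from 19 to 147 per library.

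Myeloid cells are the monocytes, macrophages, granulocytes and related cells that arise from blood-forming stem cells. Monocytes enter injured tissue from the blood and become macrophages there, which take up debris by phagocytosis, break it down in lysosomes, present antigen on MHC class II and release cytokines. The healthy disc has few vessels and few such cells, and macrophages are among the cells known to accumulate after its outer ring is cut.

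Each deposited gene value was turned back into counts of molecules (UMIs) and into CPM, the counts of a gene scaled to 1000000 counts in the cell. A level below is the mean CPM over the myeloid cells of a library. The 8 libraries held 17759809 to 67030022 UMIs, and their myeloid cells together 83191 to 872109 UMIs. The median myeloid cell had 3362 to 6922 UMIs in CON and 3785 to 8265 UMIs in LDP libraries, and 3 cells, all CON, had fewer than 1000 UMIs. At most 1 cell barcode of the class was shared by any of the 28 pairs of libraries. The study clustered and named the CON and the LDP cells separately, and no doublets were removed here. In all, 14050 genes had a value in both groups, and a gene outside that list is not analysed here.

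Known myeloid genes were high in the class. For each gene, the level in myeloid cells was divided by that in the highest other named class of the library after 10 CPM was added to both, and the median over libraries is given as a fold. The added 10 CPM makes these folds smaller than the ratios of the levels, most of all for genes of low level, so their order is not an order of exclusivity. Lyz2, which encodes the lysozyme of macrophages and monocytes, had the largest fold (254), with 1400 to 7230 CPM in myeloid cells and at most 68.5 CPM in lymphoid cells, and 70.1% of the cells had a UMI. Cd68, a lysosomal membrane protein, stood at 17.4-fold, Tlr2, a receptor for bacterial lipoproteins, at 9.73-fold, and Cd14, the co-receptor for endotoxin, at 9.25-fold. Cd14 was the least exclusive of these, with 39.8 to 92.7 CPM in cells of the intervertebral disc (IVD) class. These ratios describe the class and are not tests, since Lyz2, Cd68, Cd14 and Mrc1 had named the cells and the clusters so named rested on all genes. Cells with no class name were not among the classes compared, and 45 such cells of CON rat 5, described below, had 10100 CPM of Lyz2. CON libraries held no cells named endothelial, so the classes compared were not the same in CON and LDP.

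Of 1410 genes with at least 100 CPM in myeloid cells, 122 were at least 4-fold and 34 at least 16-fold over the next class on this scale. Among the 25 genes with the largest folds were receptors and adaptors of the myeloid surface. Tyrobp, the adaptor of activating receptors, was 97.1-fold over the next class, Fcer1g, the signalling chain of Fc receptors, 89.5-fold, and Csf1r, the receptor for the macrophage growth factor CSF1, 24.5-fold. All 3 chains of complement C1q were among them (C1qa 86.5-fold, C1qc 84.2-fold and C1qb 81.9-fold), and C1qc, at 330 to 992 CPM in myeloid cells, reached at most 0.463 CPM in disc cells and 0.767 CPM in lymphoid cells. Secreted messengers formed another group, with the neutrophil attractants Cxcl3 (132-fold) and Cxcl2 (93.7-fold), the chemokines Ccl4 (93.5-fold) and Ccl3 (51.2-fold), the cytokine Il1b (72.0-fold) and its natural antagonist Il1rn (82.8-fold). Mmp12, the macrophage elastase, stood at 33.1-fold, Gpnmb, a glycoprotein of the lysosome and the cell surface, at 28.1-fold, and RT1-Da, an MHC class II chain, at 24.7-fold. Mrc1 and Msr1, receptors used as signs of M2 macrophages, had smaller folds (7.80 and 12.2) at low levels. Mrc1 was at 50.5 to 200 CPM in myeloid cells and at most 2.22 CPM in lymphoid and 0.763 CPM in disc cells, and Msr1 at 32.9 to 196 CPM against at most 0.459 and 0.0936 CPM. Tlr4 stood at 0.856-fold, with 13.5 to 22.5 CPM in disc cells.

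PU.1 is the factor on which the myeloid lineage depends, and its sites resemble the letters GAGGAAG. Promoter windows of RefSeq (build GRCr8) were searched for these letters on both strands in the 250 bases before the gene's start. Of the 25 leading genes 16 had a window, and 4 of these (25%) held the letters (Bcl2a1, Cxcl2, Gpnmb and Csf1r), against 2778 of 27457 promoters (10.1%). GAANNTTC, the letters of heat shock factor sites, were also in 4 of the 16 windows (25%), against 7.02% of promoters, and nothing is read from either share. A match is not a site shown to be bound. To show what such a stretch looks like, 60 bases around the match are printed for 3 of the genes, with the matched letters, or their reverse complement, in capitals.
Bcl2a1, an inhibitor of cell death, chr8:98596564-98596623 (+): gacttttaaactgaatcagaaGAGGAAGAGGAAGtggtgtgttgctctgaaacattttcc
Cxcl2, chr14:17467446-17467505 (-): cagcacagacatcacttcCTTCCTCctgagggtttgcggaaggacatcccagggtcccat
Gpnmb, chr4:79340920-79340979 (+): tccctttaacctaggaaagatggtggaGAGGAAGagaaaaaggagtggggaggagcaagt

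The class was not of 1 kind. Joint clustering of the 578 cells gave 10 clusters, which were given a name only where at least 3 markers of a cell type were present in 20% or more of the cells and at least 2-fold over the other cells of the class (20 CPM added to both levels), and where no other type with at least 2 such markers had a better ranked one. Together 258 cells were macrophage-like. The larger cluster of these (161 cells) had high Apoe (11100 CPM), C1qa (2110 CPM) and Mrc1 (271 CPM). A second macrophage-like cluster (97 cells) also carried C1qa (1130 CPM) and had more Lyve1 (269 CPM against 33.4 CPM), a receptor of resident macrophages. Heat shock genes were among its leading genes, with Hspb1 at 6010 CPM and Hspa1a at 1840 CPM. Its median cell had 3752 UMIs, against 6796 UMIs in the first. Of the 97 cells 61 were CON and 36 LDP cells, against 66 and 95 in the larger cluster, and CON rat 8 gave 23 of them and LDP rat 5 gave 0.

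The monocyte-like cluster (81 cells) was led by Vcan (6280 CPM), Fcnb (871 CPM) and Thbs1 (1110 CPM). Vcan encodes versican, a matrix proteoglycan that monocytes make in abundance, Fcnb encodes a ficolin that binds microbial sugars, and Thbs1 encodes thrombospondin 1. Not 1 UMI of C1qa, C1qb or C1qc was found in these cells, and Mrc1 was at 1.41 CPM. Lyz2 was present in each of the 81 cells, and Tlr2 in 66.7% of them, against 30.4% and 23.7% in the macrophage-like clusters. A dendritic cell-like cluster (55 cells) had 4250 CPM of RT1-Ba, an MHC class II chain, and 170 CPM of Clec9a, a receptor of dendritic cells that take up dead cells.

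The remaining clusters carried genes of other cell types. A T or NK cell-like cluster (75 cells) carried the T cell receptor parts Cd3e (284 CPM), Cd3d (249 CPM) and Trbc2 (379 CPM) and the killer protein Prf1 (221 CPM), while Lyz2 was found in 4.00% of its cells and Cd68 in 1.33%. Both mast cell or basophil-like clusters had 0% of cells with Lyz2. The first (15 cells) had 89500 CPM of the protease Mcpt8, and the second (14 cells) had 16400 CPM of Cpa3, the carboxypeptidase of mast cell granules. With 24 cells, a disc-like cluster combined Acan, the main proteoglycan of cartilage (1190 CPM), with Lyz2 in 79.2% of cells, Cd14 in 70.8%, Cd68 in 54.2% and C1qa in 37.5%, and its median cell had 10656 UMIs, against 5452 UMIs over the class. Among 56 cells left unnamed were 13 with the platelet genes Gp9 (2660 CPM) and Pf4 (20700 CPM) and 43 led by Cyb561a3, found in 41.9% of them. In these 43, Blnk, an adaptor of B cell signalling, was at 348 CPM (in 37.2% of cells). The granule enzyme Mpo was at 352 CPM (in 18.6%). In a finer Leiden clustering Blnk and Mpo led different clusters, of 12 and 31 cells. Summed over their lists, B cell genes were at 33.9 to 144 CPM in CON and 0 to 71.2 CPM in LDP libraries, endothelial genes at 12.1 to 232 CPM and 0 to 63.2 CPM, and pericyte or smooth muscle genes at 0 to 14.8 CPM over both. Other lists reached higher. Neutrophil genes summed to 25.7 to 8470 CPM in CON, with the highest in rat 8, and 105 to 554 CPM in LDP. In CON rat 8 only 1 of the 31 class cells had a UMI of at least 3 neutrophil genes. The macrophage-like and monocyte-like cells of that library summed to 13.9 CPM. Erythroid genes summed to 0 to 5550 CPM in CON, with the highest in rat 5, and 0 to 1370 CPM in LDP. The part of these lists in the gene changes below was not tested.

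**Figure D1:**
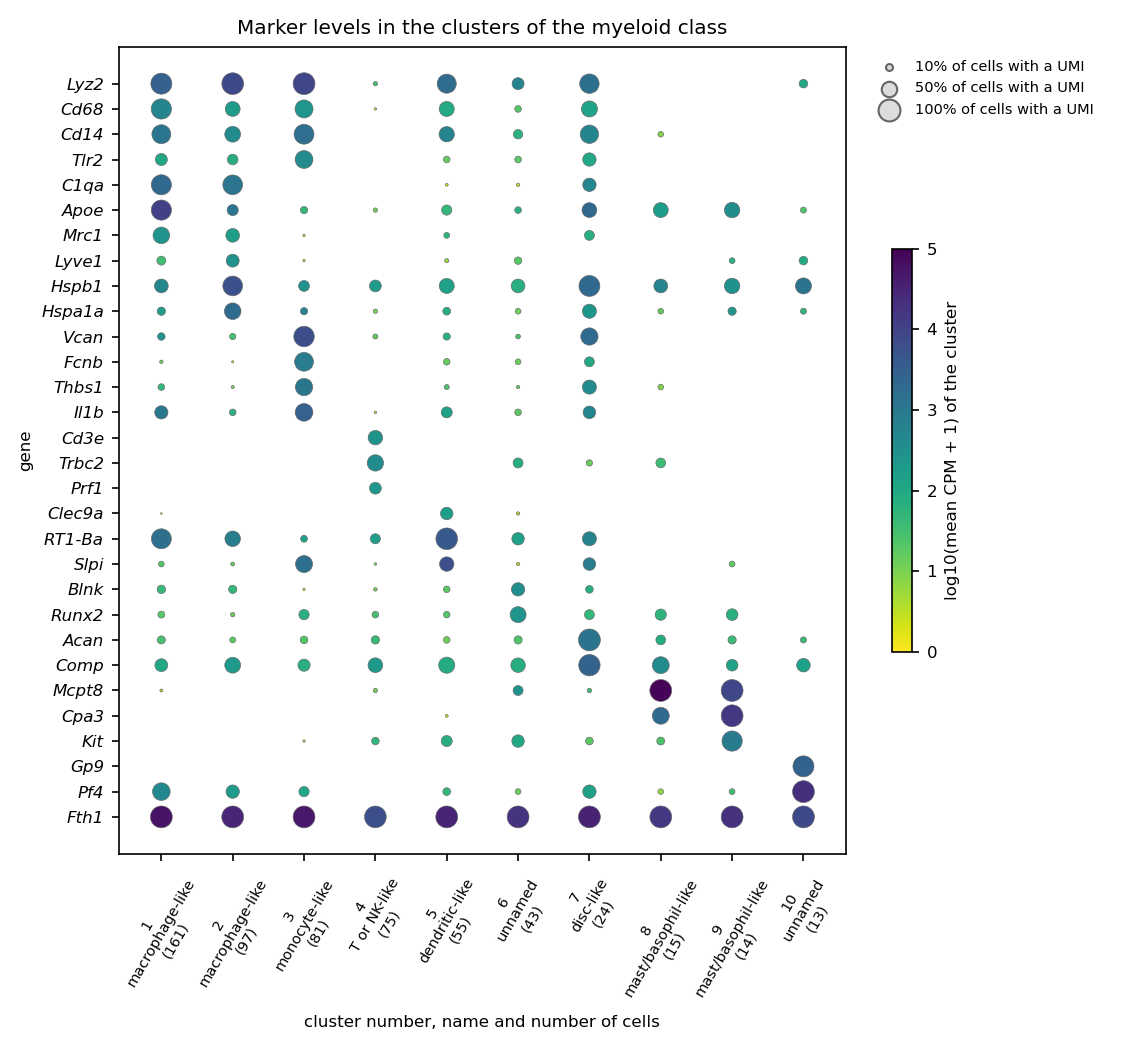
Levels of 30 genes in the 10 clusters of the class: dot colour gives log10(mean CPM + 1) of the cluster, dot size the share of its cells with a UMI. Lyz2 and Cd68 are present in clusters 1, 2 and 3, C1qa is high in 1 and 2 and absent from 3, which carries Vcan, Fcnb and Thbs1, while clusters 4, 8 and 9 carry T cell or mast cell genes and almost no Lyz2.

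The share of myeloid cells among all cells did not differ between CON and LDP beyond the spread between rats. Of all cells, CON libraries of rats 5 to 8 held 1.80, 1.60, 0.745 and 0.481% myeloid cells, and LDP libraries 0.683, 1.53, 1.39 and 0.210%. The groups overlapped, and the share was higher in LDP in 1 of 4 rats. The means were 1.16 ± 0.642% and 0.954 ± 0.619% (SD, n = 4 libraries each; two-sided exact permutation test over 70 splits, p = 0.571). Counting of cells gives a 95% Clopper-Pearson interval of 0.126 to 0.328% for the lowest library and of 1.52 to 2.11% for the highest, which covers counting error only. Without rat 5 the mean difference changed sign, to 0.102 percentage points higher in LDP.

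The kinds of cell under the class name were not the same in CON and LDP. Because CON and LDP cells had been named separately and by macrophage genes, the shares of the kinds are a description with no test. Macrophage-like and monocyte-like cells made up 23.8, 43.5, 48.6 and 80.6% of the myeloid cells in CON libraries of rats 5 to 8, and 91.5, 88.2, 83.0 and 94.7% in LDP libraries. Every LDP library lay above every CON library. The means were 49.1 ± 23.6% and 89.4 ± 5.01%, a difference of 40.2 percentage points. The difference was in the same direction, with no overlap, under 2 other clusterings and when each cell was named from its own marker genes.

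Within this total, macrophage-like cells were at 47.8 ± 22.9% in CON and 58.2 ± 14.1% in LDP. Monocyte-like cells were 3, 0, 0 and 1 in the CON libraries of rats 5 to 8 and 24, 6, 42 and 5 in the LDP libraries, or 1.32 ± 1.60% against 31.2 ± 14.2% of the class. T or NK cell-like cells were 42, 21, 11 and 1 in CON libraries and 0 in each LDP library, where 3 cells would be 1.24% of the 241 LDP cells. All 29 mast cell or basophil-like cells were CON cells, 12, 15 and 2 from rats 5, 6 and 7 and 0 from rat 8. Of the 56 unnamed cells, 55 were CON cells. Dendritic cell-like cells were 9.92 ± 5.85% in CON and 6.49 ± 4.89% in LDP. Named from each cell's own marker genes without clustering, monocyte-like cells were 19.3 ± 11.4% in CON and 42.0 ± 12.3% in LDP, and these groups overlapped.

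**Figure D2:**
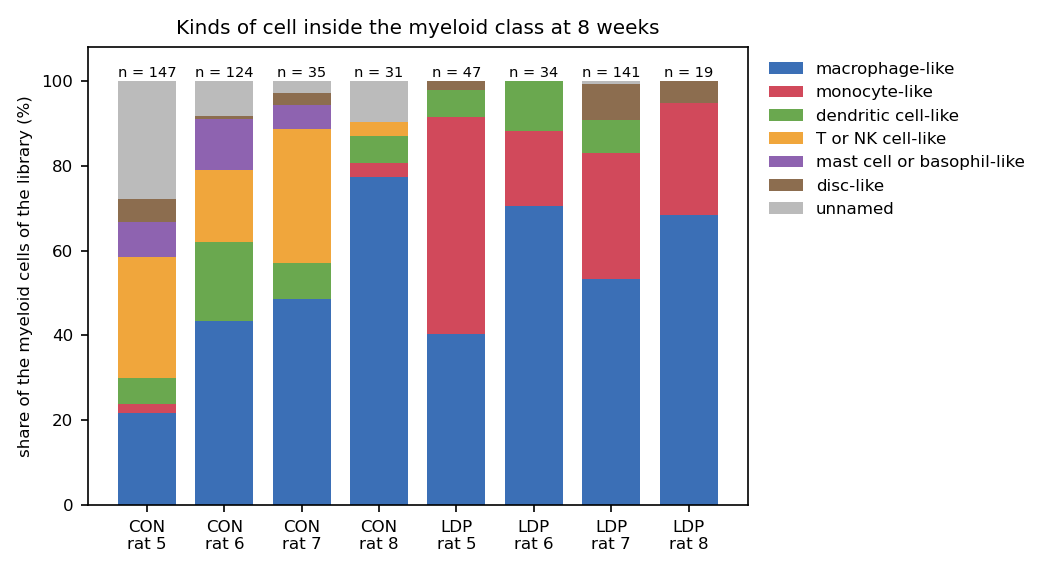
Each bar is the myeloid class of a library, divided into the kinds of cell found by joint clustering, in percent of its n myeloid cells. The 4 LDP bars consist of 83.0 to 94.7% macrophage-like (blue) and monocyte-like (red) cells, and T or NK cell-like (orange) and mast cell or basophil-like (purple) cells are seen in CON bars.

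These kinds did not go by the same class names in both groups. Over all cells at 8 weeks, 43 CON and 88 LDP cells had a UMI of at least 2 mast cell genes. In CON, 32 of the 43 were named myeloid and 2 had no class name, whereas in LDP 0 of the 88 were named myeloid and 71 had no class name. At least 2 T or NK cell genes were found in 118 CON and 149 LDP cells, of which 87 in CON and 1 in LDP were named myeloid, while 5 and 88 had no class name. Among cells with at least 3 neutrophil genes, 6 of 235 in CON and 33 of 550 in LDP were in the class. Single libraries gave most of these cells, with 225 of the 235 from CON rat 5 and 402 of the 550 from LDP rat 7. Cells with T cell or mast cell genes were thus present in LDP libraries, outside the class.

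For this reason macrophages and monocytes were also counted over all classes, as cells with a UMI of at least 3 of 7 genes (C1qa, C1qb, C1qc, Cd68, Csf1r, Cd14 and Lyz2), a choice made after the data were seen. There were 188 such cells in CON and 223 in LDP. CON libraries held 84, 63, 19 and 22 of them, or 1.03, 0.814, 0.405 and 0.341% of all cells, and LDP libraries 42, 28, 137 and 16, or 0.610, 1.26, 1.35 and 0.177%. The mean share was 0.647 ± 0.329% in CON and 0.850 ± 0.557% in LDP, higher in LDP in 2 of 4 rats (exact permutation test, n = 4 and 4, p = 0.514). Most were named myeloid in 7 libraries (81.2 to 100%). In CON rat 5 only 37 of the 84 were (44.0%), and 45 had no class name.

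Those 45 cells carried leading genes of the monocyte-like cluster. Their mean Vcan was 8230 CPM, with a UMI in 43 of them, against 400 CPM in the 37 that were named myeloid. Fcnb was at 778 CPM against 29.4 CPM, Thbs1 at 459 CPM against 14.8 CPM, and C1qa at 49.4 CPM against 1430 CPM. The median UMI count was 5448 and 5590. S100a8, a gene of neutrophils and monocytes, was at 1600 CPM in the 45 cells, 445 CPM in the 37 and 262 CPM in the monocyte-like cluster. Summed over the neutrophil list, the cells of CON rat 5 with at least 3 of the 7 genes were at 2700 CPM and those of the other libraries at 15.8 to 576 CPM, and the part of neutrophils in the result was not tested. Because these cells are outside the class in CON rat 5, a comparison of the named cells leaves them out. The class held 3 monocyte-like cells in CON rat 5 and 24 in LDP rat 5. In the other libraries 0 to 3 cells with at least 3 of the 7 genes had no class name. The main gene changes and gene lists below are therefore set out over up to 3 sets of cells: the class as named, the 339 macrophage-like and monocyte-like cells within it (131 CON and 208 LDP), and the 411 cells of any class chosen by the 7 genes.

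**Figure D3:**
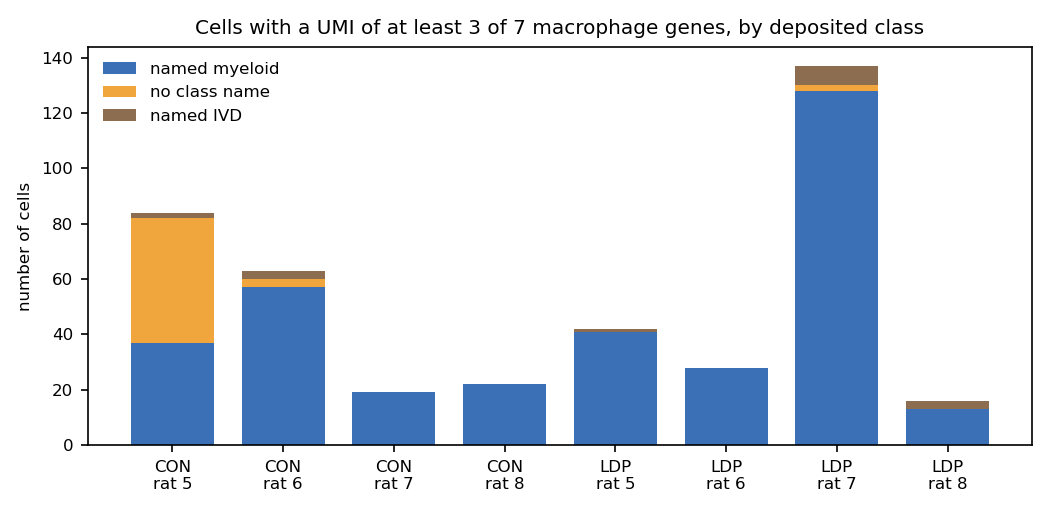
The number of cells in each library with a UMI of at least 3 of 7 macrophage genes, by deposited class. In CON rat 5, 45 of 84 such cells had no class name (orange); in the other libraries 0 to 3 did.

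The share of myeloid cells with a UMI of a marker was compared after each cell was thinned to 1000 UMIs, so that deeper cells did not appear richer. Lyz2 was found in 28.4, 36.5, 50.5 and 80.7% of the class in CON rats 5 to 8 and in 87.1, 81.7, 86.5 and 96.0% in LDP. The groups did not overlap, with means of 49.0 ± 23.0% and 87.8 ± 5.97%. For Cd14 the means were 16.6 ± 6.11% and 51.7 ± 12.0%, for Cd68 13.4 ± 5.22% and 24.2 ± 3.60%, and for Tlr2 5.21 ± 3.20% and 16.9 ± 6.45%. Each of these 4 shares was higher in LDP in 4 of 4 rats without overlap. By mean CPM, a different measure, 4.15% of all genes lay so. Cd14 and Cd68 were among those, while Lyz2 and Tlr2 overlapped between the groups by mean CPM. Lyz2, Cd14, Cd68 and Mrc1 were among the markers by which CON and LDP cells had been named, separately, so their shares are a description with no test. For Tlr2 the exact permutation test (n = 4 and 4) gave p = 0.0286, the smallest value this test can give. Adjusted over 11 markers it was 0.0786, and 0 (0.0%) of them passed 0.05. That adjustment counts the naming markers too and starts from this smallest value, so it does not decide whether the Tlr2 share differed. Without thinning the Lyz2 share was 58.8% in CON and 98.2% in LDP.

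For comparison, the same count in disc cells, which should lack Lyz2, gave 0.0477 to 0.579% for Lyz2 and 3.78 to 8.56% for Cd14. The M1 marker Cd86, a costimulatory ligand for T cells, was at 2.88 ± 0.894% in CON and 6.87 ± 3.28% in LDP (exact permutation test, n = 4 and 4, p = 0.0571). Tlr4 was found in 1.51 ± 1.08% and 1.08 ± 0.828% of myeloid cells, at or near its share in disc cells of 1.31 to 2.19%. The M2 marker Mrc1, the mannose receptor, was at 8.59 ± 4.43% and 8.72 ± 3.65%, and Msr1, a scavenger receptor, at 7.63 ± 3.28% and 11.7 ± 3.58% (exact permutation test, n = 4 and 4, p = 0.171). The M2 marker Arg1 was found in 0.490 ± 0.606% and 2.21 ± 0.973% (exact permutation test, n = 4 and 4, p = 0.0571). Cd86 and Arg1 were each higher in LDP in 4 of 4 rats, with an adjusted p of 0.105 (exact permutation test). It was adjusted over the same markers as for Tlr2, with the same limit. Cd80 was found in 1.39 ± 0.582% and 1.33 ± 1.29%. The T cell, mast cell and unnamed cells of the CON class are part of these denominators.

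**Figure D4:**
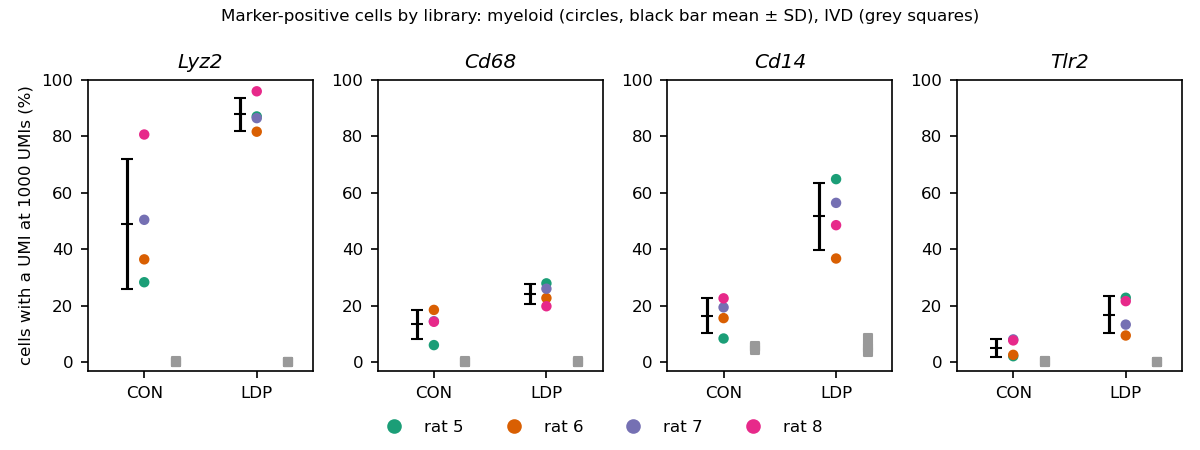
The share of cells with a UMI of Lyz2, Cd68, Cd14 and Tlr2 after thinning to 1000 UMIs, per library (circles: myeloid class, coloured by rat, black bars mean ± SD of 4 libraries; grey squares: IVD class). For each gene all LDP circles lie above all CON circles.

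Across genes, the class was compared by limma on log2(mean CPM + 10) with the rat as block. Of 2552 genes tested, 37 (1.45%) were higher in LDP and 14 (0.549%) lower at an adjusted p under 0.05. At an unadjusted p under 0.05 there were 508 (19.9%). The median change of all genes was -0.11 on the log2 scale. By edgeR 15 were higher and 19 lower with TMM scaling and 11 and 22 without scaling, and by DESeq2 42 were higher and 26 lower. In 106 genes (4.15%) every LDP library lay above every CON library, and in 166 (6.50%) below. Without rat 5 the limma test called 0 genes (358 had an unadjusted p under 0.05), without rat 6 it called 1 higher and 1 lower, without rat 7 13 and 7, and without rat 8 8 and 11.

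The genes with the largest rise were those of the monocyte-like cluster. Thbs1 was at 13.5, 30.3, 0 and 0 CPM in CON rats 5 to 8 and at 255, 234, 553 and 321 CPM in LDP. Its groups did not overlap, and the log2 change was 4.24 ± 0.506 (SE; limma, Benjamini-Hochberg adjusted p = 0.014). In disc cells Thbs1 was lower in LDP in 4 of 4 rats, at 82.6 CPM against 113 CPM. For Vcan the CON values were 248, 96.1, 17.1 and 260 CPM and the LDP values 3560, 1300, 2270 and 880 CPM, a log2 change of 3.88 ± 0.601 (SE; limma, adjusted p = 0.032). Fcnb rose by 3.34 (limma, adjusted p = 0.0453), Mal from 0 to 16.3 CPM in CON to 74.0 to 127 CPM in LDP libraries, Mefv, the pyrin gene, by 1.88, Clec4d, a lectin receptor of myeloid cells, by 2.23, and Trem1, a receptor that amplifies inflammatory signalling, by 2.34 (limma, adjusted p between 0.0428 and 0.0468 for these). All 7 were among the 10 leading genes of the monocyte-like cluster, so their change is not independent of the larger share of that cluster. How much of the change came with that share was not tested, since the class held only 4 monocyte-like CON cells.

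The 339 macrophage-like and monocyte-like cells include the whole monocyte-like cluster, with 4 CON and 77 LDP cells. In this set Thbs1 was 3.91 ± 0.587 (SE) higher on the log2 scale (limma, adjusted p = 0.0274). Vcan was 3.19 ± 0.549 (SE) higher (limma, adjusted p = 0.0484). The set does not take away the difference in that cluster's share. Over the 411 cells of any class, however, the 45 unnamed cells brought CON rat 5 to 4630 CPM of Vcan, above each LDP library (3140, 1120, 2090 and 119 CPM). The other CON libraries were at 295, 31.4 and 65.8 CPM. There the log2 difference was 1.94 ± 0.847 for Vcan (SE; limma, adjusted p = 0.746), 2.81 ± 0.793 for Thbs1 (limma, adjusted p = 0.59) and 1.24 ± 0.908 for Fcnb (limma, adjusted p = 0.801).

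Cd14 was at 133, 277, 435 and 325 CPM in CON and at 1510, 773, 1370 and 945 CPM in LDP. The log2 difference was 2.00 ± 0.334 (SE; limma, adjusted p = 0.0347), which supports nothing on its own, since Cd14 was among the markers that had named the cells. It was the only one of the 5 tested Toll-like receptor and adaptor genes past the threshold in the class (1.45% of all genes rose), and Tlr2 was at 1.75 ± 0.405 (limma, adjusted p = 0.0632). The Cd14 call was lost in the 339 cells, at 1.24 (limma, adjusted p = 0.0925), and over cells of any class, at 0.66 (limma, adjusted p = 0.661), where Cd14 had helped to choose the cells. The Toll-like list had 0 calls in both sets, with medians of 0.92 and 0.31. Il1rn, which blocks the interleukin 1 receptor, rose by 1.78 in the class (limma, adjusted p = 0.032), and was at 0.86 in the 339 cells and 0.85 over cells of any class (limma, adjusted p = 0.282 and 0.746). In the class it was the only one of 16 tested cytokine and chemokine genes to pass, against 1.45% of all genes, and 14 of the 16 had a positive log2 difference (median 0.915). In the 339 cells 10 of the 16 were positive (median 0.273) and over cells of any class 7 (median -0.15), with 0 called in both. Il1b itself was at 148, 153, 1130 and 128 CPM in CON and 4000, 1150, 778 and 740 CPM in LDP, with CON rat 7 inside the LDP range (limma, adjusted p = 0.107, and 0.341 and 0.8 in the smaller sets). Akr1b8, an aldo-keto reductase, rose by 1.95 in the class (limma, adjusted p = 0.014), and was at 1.34 in the 339 cells and 0.28 over cells of any class (limma, adjusted p = 0.0705 and 0.931).

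Of 15 lysosomal genes tested in the class, 5 rose in LDP (Ctsb, Ctsl, Lgmn, Gpnmb and Lipa), where 1.45% of all genes did, and 15 had a positive difference, with a median of 0.846 against -0.11 over all genes. Ctsb, a cathepsin, was at 902, 2130, 1890 and 1380 CPM in CON and at 2710, 3740, 3460 and 3560 CPM in LDP (log2 change 1.15 ± 0.177 SE; limma, adjusted p = 0.032). Lipa, the acid lipase that frees cholesterol in the lysosome, rose by 1.30, and Gpnmb by 1.44 (limma, adjusted p = 0.0347 and 0.032). Of 8 lipid genes 3 rose, against the same 1.45%: Fabp5, which carries fatty acids, by 0.97, Plin2, which coats lipid droplets, by 1.29, and Lgals3, the galectin 3 gene, by 1.20 (limma, adjusted p = 0.0477, 0.0478 and 0.032). Fcgr1a, the high-affinity receptor for IgG, rose by 1.66 and Tyrobp by 0.96 (limma, adjusted p = 0.0453 and 0.0468). They were 2 of 7 in the Fc receptor list, against 1.45% of all genes. Spp1, the osteopontin gene, rose by 1.26 (limma, adjusted p = 0.0347), though its groups overlapped. It was, with Thbs1, 1 of 2 called of 8 matrix genes, against the same 1.45%. Spp1 was at 0.87 in the 339 cells and 0.63 over cells of any class (limma, adjusted p = 0.114 and 0.801). There 1 of 7 and 0 of 8 matrix genes were called, where 0.28% and 0.0% of all genes were called higher.

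None of these lysosomal, lipid and Fc receptor genes passed by limma in the 339 macrophage-like and monocyte-like cells or over cells of any class. The lysosomal median there was 0.257 with 10 of 15 positive, the lipid median -0.28 with 3 of 8 positive, the Fc receptor median 0.158 with 6 of 9 positive, and the median of all genes -0.07. Over cells of any class the medians were 0.173 (11 of 15 positive), 0.027 (5 of 8) and 0.035 (5 of 7). Csf1r, of the Fc receptor list, had helped to choose these cells. Trem2, of the Fc receptor and lipid lists, had helped to name a macrophage-like cluster. The T or NK cell-like cluster, all of CON cells, had 56.8 CPM of Ctsb, against 4830 CPM and 1900 CPM in the macrophage-like clusters and 2750 CPM in the monocyte-like one, and its part in the lysosomal counts of the class was not tested. Complement genes (0 of 7 called), MHC class II genes (0 of 5) and interferon response genes (0 of 6) did not pass in either set, and the C1q chains among them had helped to name the clusters. The 13 macrophage markers are described with no test, since several of them named the class or the clusters or chose the cells of any class. Their summed level in the class was 3480 to 4680 CPM in CON and 4010 to 4610 CPM in LDP libraries. In the 339 cells it was 4380 to 9280 CPM in CON and 4230 to 5200 CPM in LDP, with 5 of the 13 positive and a median of -0.61. The monocyte-like cells of this set, 4 CON and 77 LDP, had no UMI of the C1q chains. Their part in these values was not tested.

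Of 6 iron and haem genes tested in the class, 1 rose and 1 fell, where 1.45% and 0.549% of all genes did, and 5 had a positive difference (median 0.638). In the 339 cells 3 of the 6 were positive. Fth1, the heavy chain of the iron store ferritin, was at 19600, 27300, 21300 and 30000 CPM in CON and at 64800, 56600, 47900 and 47000 CPM in LDP, with no overlap (log2 change 1.15 ± 0.146 SE; limma, adjusted p = 0.018). It also rose in the 339 macrophage-like and monocyte-like cells, by 0.60 ± 0.095 (SE; limma, adjusted p = 0.0386). Without the rat block the adjusted p of Fth1 was 0.00879 in the class and 0.0814 in the 339 cells (limma). Over cells of any class the difference was 0.34 (limma, adjusted p = 0.551). Tfrc, the transferrin receptor, which brings iron into cells, was at 122, 180, 124 and 156 CPM in CON and at 1.80, 68.7, 24.9 and 57.2 CPM in LDP. It fell by 2.00 in the class (limma, adjusted p = 0.0477), and was -2.55 in the 339 cells (limma, adjusted p = 0.0575) and -1.95 over cells of any class (limma, adjusted p = 0.335). Disc cells had less Tfrc in LDP too, in 4 of 4 rats (112 CPM against 167 CPM). Without the rat block the adjusted p of Tfrc in the class was 0.0824 (limma). In the larger macrophage-like, the Lyve1-rich and the monocyte-like cluster, Fth1 was at 58000, 30000 and 48200 CPM and Tfrc at 104, 192 and 11.3 CPM. These clusters held 66, 61 and 4 CON cells and 95, 36 and 77 LDP cells, and the part of this split in either change was not tested. The other 4 iron and haem genes tested did not pass.

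Several of the genes that fell were high in the T or NK, mast or dendritic cell-like clusters. Ets1, a transcription factor of lymphocytes, was at 374, 274, 489 and 54.9 CPM in CON and at 6.58, 0, 15.2 and 7.73 CPM in LDP (log2 change -3.89 ± 0.506 SE; limma, adjusted p = 0.018). By cluster it was at 1090 CPM in T or NK cell-like cells, 894 and 480 CPM in mast cell or basophil-like cells and 1.27 to 11.7 CPM in macrophage-like and monocyte-like cells. Gpr171 fell by 2.91 (limma, adjusted p = 0.014) and Pkib by 2.23 (limma, adjusted p = 0.0428). Pkib, an inhibitor of protein kinase A, was at 800 CPM in the dendritic cell-like cluster. In the 339 cells Ets1, Gpr171 and Pkib were below the limit for testing, and Smc4, a condensin subunit that fell by 1.85 in the class, was at -0.40 (limma, adjusted p = 0.758). The ribosomal genes Rpl3, Rpl37a and Rps18 fell by 0.83, 0.60 and 0.73 in the class, and were at -0.12, 0.02 and 0.12 in the 339 cells.

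Hspb1 and Hspa8, which encode chaperones and are outside the heat shock list, fell in the class and in the 339 cells but did not pass over cells of any class. Hspb1, a small chaperone, was at 778, 646, 2110 and 7480 CPM in CON and at 152, 202, 1600 and 2200 CPM in LDP, lower in LDP in each rat though the groups overlapped across rats (log2 change -1.52 ± 0.289 SE; limma, adjusted p = 0.0453). In the 339 cells the change was -2.28 ± 0.299 (SE; limma, adjusted p = 0.0208), and over cells of any class -1.49 ± 0.218 (SE; limma, adjusted p = 0.185). Without the rat block the adjusted p was 0.427 in the class and 0.316 in the 339 cells (limma). Hspb1 was at 6010 CPM in the Lyve1-rich macrophage-like cluster, 485 CPM in the larger one and 260 CPM in the monocyte-like one. The first of these made up 61 of the 131 CON and 36 of the 208 LDP cells, and the part of this split in the fall of Hspb1, Hspa8 and the list below was not tested. In disc cells Hspb1 was higher in LDP in 4 of 4 rats, at 3370 CPM against 2680 CPM. Hspa8, the constitutive partner of the Hsp70 family, fell by 1.15 in the class and by 1.54 in the 339 cells (limma, adjusted p = 0.0468 and 0.0406), and was at -1.18 over cells of any class (limma, adjusted p = 0.561). Without the rat block its adjusted p was 0.17 and 0.123 in the class and the 339 cells (limma). Of the 10 tested immediate early and heat shock genes, a list that holds neither of those, 0 passed in any of the 3 sets. In the class 2 had a positive difference and the median was -0.78. The median was -1.39 in the 339 cells and -0.81 over cells of any class, with 1 of 10 positive in both.

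The promoters of Hspb1 and Hspa8 are printed as an illustration, since both encode chaperones, a group of genes that heat shock factor can control. Its sites resemble paired repeats such as GAANNTTC. These letters were found in 1928 of 27457 promoters (7.02%) in the 250 bases before the start. They occurred 2 times in the promoter of Hspb1 and of Hspa8. Capitals mark each match within the 60 bases printed. A match is not a site shown to be bound, and a part of this factor in the fall of either gene was not tested.
Hspa8, chr8:50080437-50080496 (+): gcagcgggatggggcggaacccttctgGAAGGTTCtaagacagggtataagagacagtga
Hspb1, chr12:26432378-26432437 (-): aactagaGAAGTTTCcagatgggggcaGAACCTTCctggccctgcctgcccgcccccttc

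A transcript known only by the identifier AABR07000398.1 was lower in every LDP library in all 3 sets of cells. In the class it was at 5650, 5590, 6680 and 9410 CPM in CON and at 1520, 2860, 1690 and 2520 CPM in LDP (log2 change -1.68 ± 0.187 SE; limma, adjusted p = 0.014). The change was -1.77 in the 339 cells (limma, adjusted p = 0.0208) and -1.53 over cells of any class (limma, adjusted p = 0.0794, the smallest of 2506 genes). It was not particular to myeloid cells: disc cells had 2890 CPM in LDP and 6150 CPM in CON, lower in 4 of 4 rats, and lymphoid cells were lower in 4 of 4 rats as well.

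**Figure D5:**
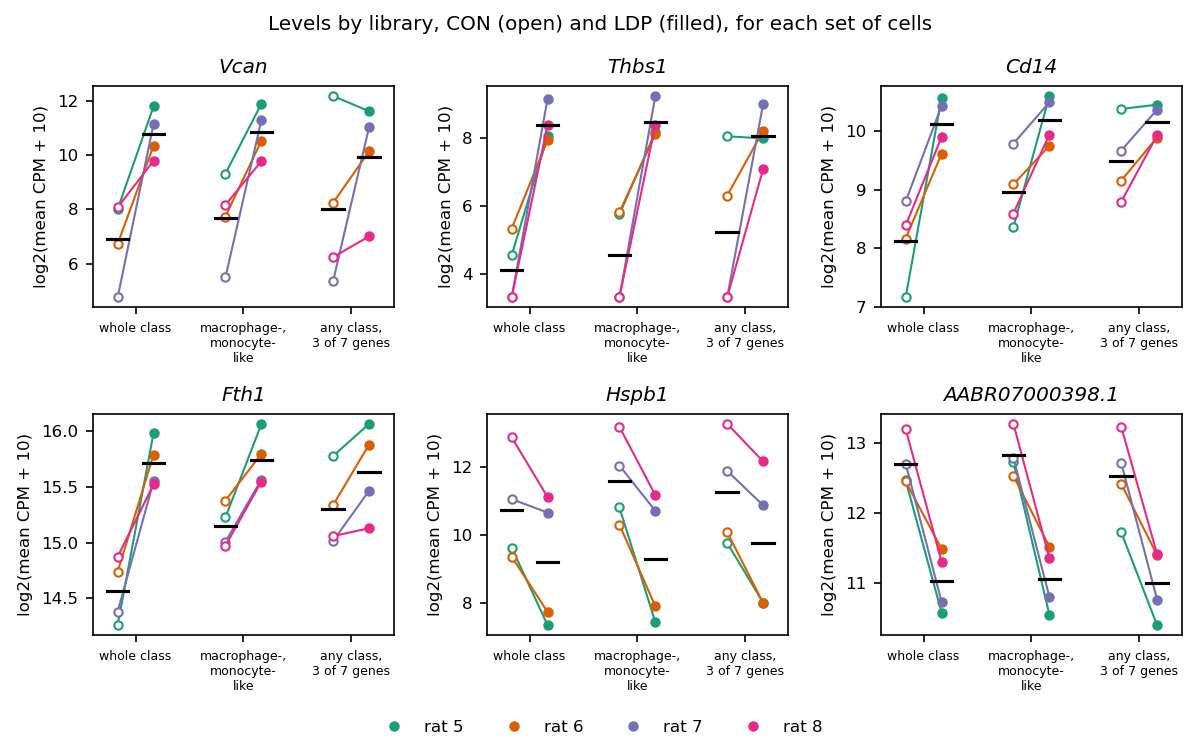
Levels of 6 genes on the log2(mean CPM + 10) scale in each library, CON (open) and LDP (filled) joined by rat, with black bars at the mean of 4, for the class as named (left), its macrophage-like and monocyte-like cells (middle) and cells of any class with 3 of 7 macrophage genes (right). For Vcan, Thbs1 and Cd14 the CON point of rat 5 (green) rises to the LDP level in the right set, whereas AABR07000398.1 stays lower in LDP in each set.

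Taken over all genes, the 339 macrophage-like and monocyte-like cells gave 7 genes higher (0.28%) and 4 lower (0.16%) of 2500 tested, 0.44% in all. Of the 37 genes higher in the class, 5 were also called there (Fth1, Napsa, Prdx5, Thbs1 and Vcan), which is 13.5% of the class calls and 71.4% of the calls in the 339 cells. Shared lower calls were AABR07000398.1, Hspa8 and Hspb1. Called in the 339 cells alone were Glipr1, Srgn, the granule proteoglycan serglycin, and, lower, Mgp, the matrix Gla protein; these and Napsa and Prdx5 were named after their values were seen. All 37 kept a positive difference in both smaller sets, while their median went from 1.44 in the class to 0.80 in the 339 cells and 0.50 over cells of any class. In that last set limma called 0 of 2506 genes in either direction (165, or 6.58%, had an unadjusted p under 0.05), edgeR 0 and DESeq2 0 higher and 7 lower. Without rat 8 the 339 cells gave 0 calls (306 with an unadjusted p under 0.05).

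In a fit of all 16 libraries of both time points, 0 of 2634 genes differed between 2 and 8 weeks in the LDP effect on myeloid cells by limma at an adjusted p under 0.05 (127 unadjusted), and the smallest adjusted p was 0.524. At 2 weeks, with 1153 myeloid cells, limma called 0 genes. Thbs1 had a log2 difference of 0.27 at 2 weeks and 4.24 at 8 weeks, and Vcan 0.41 and 3.88.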

How the data were processed

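Values of the 8 libraries at 8 weeks were read per cell. Partek Flow was the software the authors used on the reads. Cells were filtered on genes, UMIs and mitochondrial share, CON and LDP were clustered apart by K-means, and the clusters were named by marker genes; the submitters' processing notes name the build rn6. Doublet and free RNA treatment is not given in the sources used here, and none was done here. What was deposited per cell and gene is a log2(CPM + 1) value. The deposited cell totals are expected counts over listed genes, the mitochondrial and ribosomal shares were deposited as percent, and the number of expressed genes was deposited as counts. Multiplying CPM by the cell totals gave whole numbers for 99.4% of values above 0, within 0.02 plus a small share of the count. Cells had 496 to 3000 genes and at most 10.1% mitochondrial reads.

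Levels were means over a library's myeloid cells and were tested by limma 3.58.1 (R 4.3.3) with a trend on log2(mean CPM + 10), which understates changes of low genes, for genes with a mean of at least 50 CPM, with a rat block and Benjamini-Hochberg adjustment. That mean runs over both groups, so a gene could pass through the group where it is high, as Thbs1, Fcnb, Mal, Trem1 and Mefv did through LDP. Ets1, Gpr171, Pkib, Tfrc and Smc4 did so through CON. edgeR 4.0.16 and DESeq2 1.42.0 on recovered counts were alternatives. Shares were tested by two-sided exact permutation over 70 splits, except that the planned tests of the kinds of cell and of the naming markers are not given, because the naming of CON and LDP cells bears on them. Cells were thinned to 1000 UMIs by the expected share, leaving out 3 shallower cells. Clusters came from Leiden at resolution 0.5 on 20 principal components (leidenalg 0.10.2). On simulated data of 2552 genes, limma recovered 43 of 100 genes changed 2-fold and 93 of 100 changed 4-fold. It called 4 of 2352 unchanged ones. The share of false calls among the genes called in the class itself was not tested. CON and LDP of a number come from the same animal; the correlations of their deviations in rats 5 to 8 were 0.215, 0.262, -0.221 and 0.213. The members and gene lists were chosen with earlier results of these data known. Genes named were the study's 11 markers, the 25 with the largest ratio to the next class, up to 10 per direction with the largest change among those called and alike in every rat, and list members called or high.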

Additional observations from a re-analysis of the deposited data

Results flagged for a closer look

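In 82 groups of 4 libraries tested for a library far from the others, 3 were found, where chance gives about 1 in 20. In CON rat 6, 4.22% of myeloid cells had a UMI of Cd86 after thinning, against 2.38 to 2.50% in the other CON libraries. CON rat 5 had 16.3 CPM of Mal, against 0 to 1.86 CPM, and CON rat 6 had 940 CPM of Il1rn, against 246 to 316 CPM. Outside the class, 45 cells of CON rat 5 with at least 3 of 7 macrophage genes had no class name, against 0 to 3 in the other libraries. They had 8230 CPM of Vcan and 10100 CPM of Lyz2.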

How the results depend on the processing

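The LDP minus CON difference in the myeloid share changed sign, from -0.203 percentage points, to 0.203 with cells of any class chosen by 3 of 7 genes, and leaving out a rat gave -0.485 to 0.102. A rule naming cells by their own counts gave 3.59, but it took 77.3% of CON and 80.9% of LDP cells and so does not measure a myeloid share. The difference of 40.2 percentage points in macrophage-like and monocyte-like cells is a description, since the naming bears on it. It stays 40.2 by construction with sign flips within a rat as replicate block, and that test is not given for the same reason. With a rat left out the difference was 31.1 to 48.9. Higher and lower calls of genes (37 and 14) were 28 and 10 without the replicate block, 0 to 13 and 0 to 11 with a rat left out, 22 and 5 with pseudocount 1, 56 and 53 with a minimum of 10 CPM, 3 and 4 with no minimum, 6 and 2 on summed counts, 4 and 7 without the trend, 15 and 19 with edgeR TMM, 11 and 22 with edgeR unscaled, 42 and 26 with DESeq2, 63 and 46 weighted by cells, 2 and 7 with at least 20 cells per library, 22 and 14 over 16 libraries, 7 and 4 in the 339 macrophage-like and monocyte-like cells and 0 and 0 in cells of any class. Rpl37a and Rps18 changed sign to 0.024 and 0.116 in the 339 cells and to 0.092 and 0.125 in cells of any class. Of 950 values of called genes under alternatives, 370 kept their call, 576 kept only their direction and 4 changed sign. The causes were not tested. The smallest library had 19 myeloid cells, and 4 rats limit each test. Without the block 30 of the 51 called genes were still called, and for marker shares the blocked test could not reach 0.05.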
